A study of Mus musculus with 8 samples.

Results

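The 48 genes described here are interferon-stimulated genes, whose transcription rises when a cell senses type I interferon, and they were taken by symbol from a fixed list. All 48 were found among the 23354 gene symbols of the deposited tables, and all 48 passed the filter on low values (at least 1 FPKM in at least 2 libraries) that left 10934 genes for testing. FPKM counts fragments relative to the length of the transcript and to the size of the library. The study measured messenger RNA in 8 libraries of mouse bone marrow-derived macrophages on the C57BL/6J strain, from animals 8 weeks old. Marrow cells became macrophages over 7 days in culture, fed with supernatant of L929, a fibroblast line that secretes the growth factor they need. By title, the groups are Ern1f/f control, Ern1f/f IL-4, Ern1f/fLyz2-Cre control and Ern1f/fLyz2-Cre IL-4, with 2 libraries each, numbered 1 and 2. Every group carries the floxed Ern1 allele, which encodes the endoplasmic reticulum stress sensor IRE1α. Lyz2-Cre expresses the recombinase from the lysozyme 2 gene of myeloid cells, and no group is free of the floxed allele. The IL-4 groups received 20 ng/ml of IL-4, the cytokine of alternative macrophage activation, for 24 hours. The labels do not say whether libraries came from separate mice or cultures, so p-values measure only the spread between these libraries, which may be technical.

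The titles and the genotype field of the labels disagree. In 4 of the 8 libraries the field gives the other genotype, and it follows the replicate number: every library numbered 1 is entered as Ern1f/f and every library numbered 2 as Ern1f/fLyz2-Cre. Groups are named here by title. Under the genotype field, replicate number and genotype cannot be told apart, and each difference between numbers below would also be one between genotypes. Ern1 itself was at 7.43 to 14.3 FPKM in the libraries numbered 1 and at 9.11 to 12.7 in those numbered 2. Titled genotypes overlapped in it, and a level over the whole gene does not check the deletion of a part of it. Lyz2, the locus that carries the Cre, was lower in the library titled Ern1f/fLyz2-Cre in each of the 4 matched pairs, at 10950 against 18110 and 5780 against 8901 FPKM in number 1, and 2171 against 17420 and 1572 against 11960 in number 2. The macrophage genes Csf1r, Cd68 and Emr1 were at 356 FPKM or more in every library.

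Type I interferons bind a receptor of 2 chains, Ifnar1 and Ifnar2, whose kinases Jak1 and Tyk2 phosphorylate STAT factors such as Stat2. With Irf9, Stat2 takes part in a complex that binds the interferon-stimulated response element in the promoters of target genes. The targets include RNA-binding proteins that block viral translation, enzymes that make or act on nucleic acids, sensors of foreign RNA and DNA, and Irf7, a factor that raises interferon production further. Macrophages make a low level of interferon beta without infection, and many of these genes are therefore readable in resting cultures.

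RefSeq windows of 300 bases (250 before and 50 after the annotated start, build GRCm38.p6, the assembly also called mm10) were found for 36 of the 48 genes, and 12 had none. A pair of GAAA runs separated by any 2 bases, read on both strands, was taken as a match to the core of the response element. It was found in 19 of the 36 genes with a window (52.8%), of which 9 held it at least 2 times, against 3.99% of 27025 RefSeq genes and 4.03% of 8206 tested genes. The 250 bases before the start are shown for 5 genes that hold a match. The first 4 are those with a match among the 8 genes with a window whose mean FPKM differed at least 10-fold between replicate numbers. The other genes of these 8 held no match and are not shown. Bst2 was called lower with IL-4 in number 2. They are written 5′ to 3′ on the strand of the gene, with the matches in capitals.
Ifit1 (chr19:34640639-34640888, plus strand): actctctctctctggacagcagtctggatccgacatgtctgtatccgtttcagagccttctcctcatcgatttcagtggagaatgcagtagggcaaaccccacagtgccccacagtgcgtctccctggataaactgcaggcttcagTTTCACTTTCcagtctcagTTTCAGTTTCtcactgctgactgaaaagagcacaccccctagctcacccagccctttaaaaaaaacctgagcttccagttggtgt
Ifit3 (chr19:34583279-34583528, plus strand): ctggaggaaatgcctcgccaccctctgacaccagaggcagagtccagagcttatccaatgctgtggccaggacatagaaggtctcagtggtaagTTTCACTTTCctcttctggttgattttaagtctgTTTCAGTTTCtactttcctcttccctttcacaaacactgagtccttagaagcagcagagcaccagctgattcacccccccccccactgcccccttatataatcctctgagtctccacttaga
Isg15 (chr4:156200819-156201068, minus strand): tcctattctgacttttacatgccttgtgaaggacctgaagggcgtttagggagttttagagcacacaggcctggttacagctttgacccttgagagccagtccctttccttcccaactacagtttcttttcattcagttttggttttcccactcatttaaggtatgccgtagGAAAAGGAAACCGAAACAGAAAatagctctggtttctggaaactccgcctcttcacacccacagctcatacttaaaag
Rsad2 (chr12:26456453-26456702, minus strand): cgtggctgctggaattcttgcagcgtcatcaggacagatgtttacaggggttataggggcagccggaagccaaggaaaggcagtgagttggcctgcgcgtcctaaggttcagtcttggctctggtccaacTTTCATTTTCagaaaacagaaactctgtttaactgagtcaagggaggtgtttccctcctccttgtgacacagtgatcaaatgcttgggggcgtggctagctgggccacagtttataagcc
Bst2 (chr8:71537473-71537722, minus strand): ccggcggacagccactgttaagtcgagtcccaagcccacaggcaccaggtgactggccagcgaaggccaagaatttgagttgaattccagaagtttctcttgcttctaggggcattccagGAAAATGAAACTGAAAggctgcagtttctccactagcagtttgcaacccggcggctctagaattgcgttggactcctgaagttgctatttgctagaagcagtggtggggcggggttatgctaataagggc

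Ifit1 and Ifit3 each hold 2 separate matches, at −104 and −85 and at −156 and −122 bases from the start (counted to the first base of the match). Isg15 holds 3 that overlap, at −78, −72 and −66, and Bst2 2 that overlap, at −130 and −124, while Rsad2 holds 1 at −120. A TTC and GAA separated by 4 bases, the spacing that STAT6 of the IL-4 pathway prefers, matched in 9 of the 36 genes (25.0%), against 8.01% of RefSeq genes. With 3 bases between them, which was also searched, the count was the same, 9 of the 36 genes (25.0%), against 9.55% of RefSeq genes. Among the 8 genes with a window whose mean FPKM differed at least 10-fold between replicate numbers, 4 held a response element match, and among the other 28 genes with a window 15 did. A match describes the letters in the window and is not a measured binding site.

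**Figure D1:**
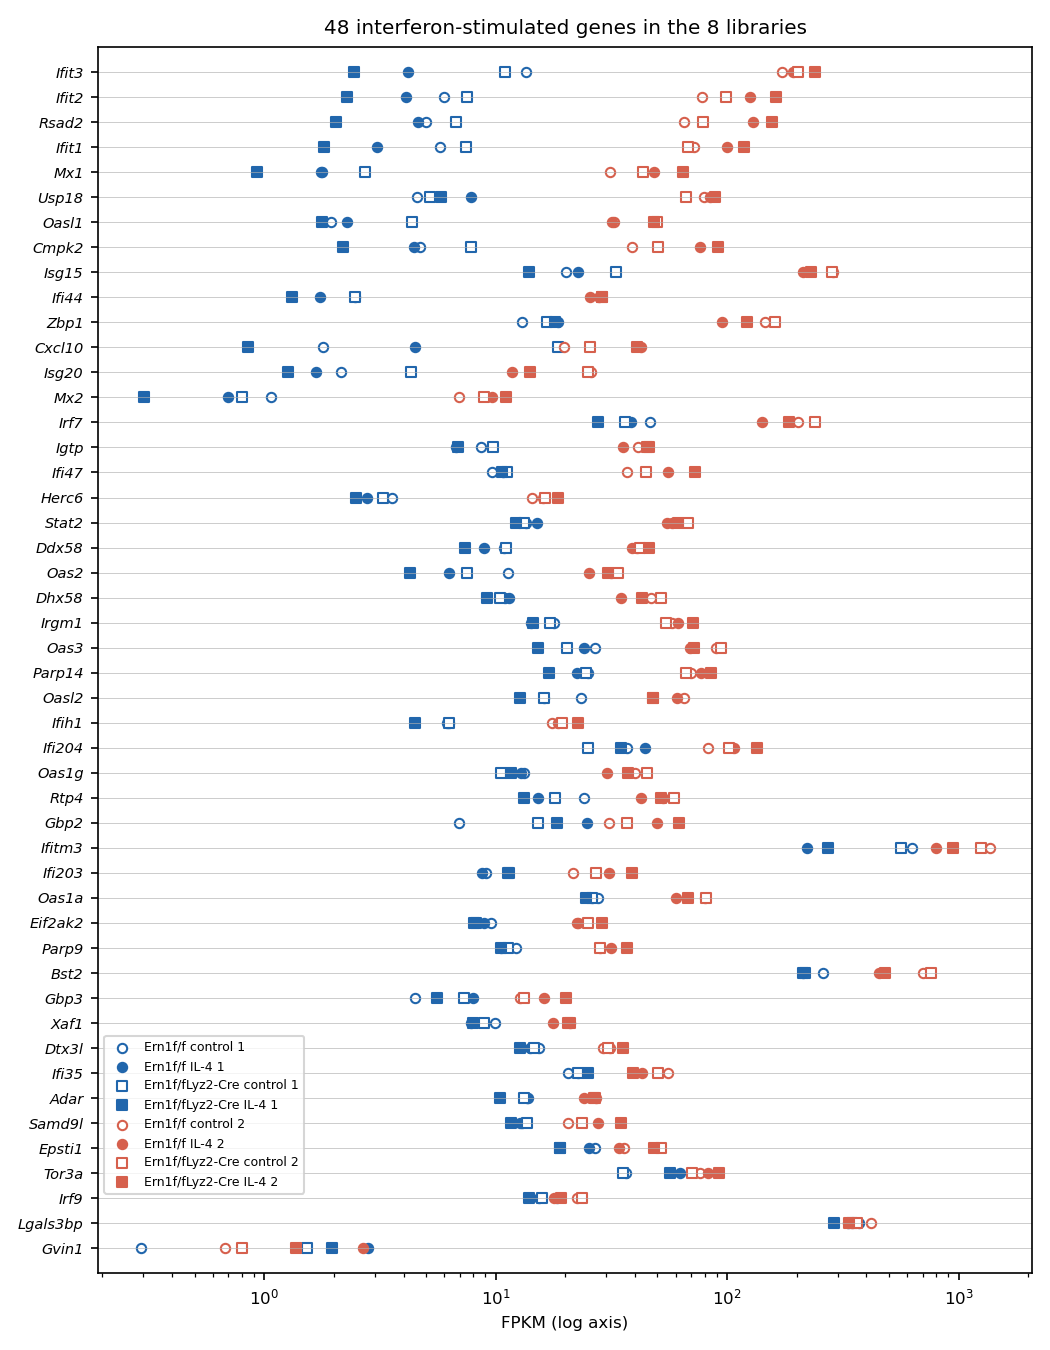
FPKM of the 48 genes in the 8 libraries (log axis), ordered by the difference between replicate numbers, with blue for number 1, red for number 2, circles for Ern1f/f, squares for Ern1f/fLyz2-Cre, open for control and filled for IL-4. For 45 genes every red point lies to the right of every blue point; Irf9, Lgals3bp and Gvin1 overlap.

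Libraries with the same replicate number resembled each other across treatments and titled genotypes, and the 48 genes were higher in number 2. Their summed level was 1276 to 1857 FPKM in the 4 libraries numbered 1 and 4151 to 5102 FPKM in the 4 numbered 2. In a limma fit over all 10934 genes with Benjamini-Hochberg adjustment, and with group as a term, 46 of the 48 were called higher in number 2 (adjusted p under 0.05) and 0 lower, where 10.1% of all tested genes were called higher. For 45 of the 48, every library numbered 2 was above every library numbered 1, which held for 9.33% of all tested genes. The median difference was 1.79 on the log2(FPKM + 1) scale for the 48 genes and −0.11 for all tested genes, and this scale understates changes of genes near 1 FPKM. Of the means in FPKM, 11 genes differed by at least 10-fold, 11 by 4- to 10-fold, 21 by 2- to 4-fold and 5 by less than 2-fold. The 48 genes supplied 12 of the 50 greatest rises in number 2 among all tested genes, a ranking that leaves out falls. Over all genes 1104 were called higher and 2553 lower, so 30.2% of calls were higher; with median-of-ratios scaling of the libraries this share was 50.3%, and with upper-quartile scaling 39.7%. The 46 calls stayed within 44 to 47 under these and the other alternatives.

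In what follows, the 4 values of a replicate number are given in the order Ern1f/f control, Ern1f/f IL-4, Ern1f/fLyz2-Cre control and Ern1f/fLyz2-Cre IL-4. The IFIT proteins, which bind viral RNA and hold it from translation, stood at the top. Ifit3 was at 13.5, 4.18, 11.0 and 2.44 FPKM in number 1 and at 172, 193, 202 and 240 FPKM in number 2, a difference of means of 25.9-fold and of 4.75 ± 0.40 on the log2 scale (SE; adjusted p = 0.000637). Ifit2 was at 5.96, 4.10, 7.50 and 2.29 FPKM against 78.2, 125, 99.2 and 163 FPKM (4.33 ± 0.35, SE; adjusted p = 0.000574). In both genes the lowest level of number 2 was above 10 times the highest of number 1. Ifit1 was at 5.72, 3.06, 7.43 and 1.82 FPKM against 71.9, 99.6, 67.5 and 119 FPKM (4.13 ± 0.38, SE; adjusted p = 0.000888). The 3 genes lie beside each other on chromosome 19 and encode related proteins, so reads of one may in part have been assigned to another.

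Isg15, a ubiquitin-like protein attached to other proteins and also secreted, was at 20.1, 22.8, 33.0 and 14.0 FPKM in number 1 and at 286, 214, 283 and 229 FPKM in number 2 (3.49 ± 0.16, SE; adjusted p = 0.000129). Usp18, the protease that removes ISG15 and also blocks signalling at Ifnar2, was at 4.55, 7.84, 5.18 and 5.82 FPKM against 79.7, 84.7, 66.3 and 89.0 FPKM. The spread of Usp18 within a number was small beside the gap, and its difference of 3.58 ± 0.11 (SE) had the smallest adjusted p of the 48 genes (2.75e-05). Herc6, a ligase for ISG15 in the mouse, differed by 2.11. The 6 genes of the oligoadenylate synthetase family, some members of which signal the presence of double-stranded RNA, were all called higher in number 2. Among them Oasl1 differed most, at 1.94, 2.28, 4.37 and 1.78 FPKM against 32.3, 31.7, 49.8 and 48.1 FPKM (3.55), and Oas1a least (1.42), with Oas2, Oas3, Oasl2 and Oas1g between them at 1.97, 1.88, 1.65 and 1.57. Oas1a and Oas1g are near-identical neighbours, and their separate values are uncertain.

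All 10 other direct antiviral effectors were called higher in number 2. Rsad2, the radical SAM enzyme viperin, was at 5.02, 4.63, 6.73 and 2.05 FPKM in number 1 and at 65.3, 129, 78.8 and 157 FPKM in number 2 (4.26 ± 0.37, SE; adjusted p = 0.000776). Its neighbour Cmpk2, a mitochondrial nucleotide kinase, was at 4.69, 4.43, 7.82 and 2.18 FPKM against 38.7, 76.5, 50.1 and 91.0 FPKM (3.51). Mx1, a dynamin-like GTPase, was at 1.77, 1.78, 2.72 and 0.932 FPKM against 31.2, 48.1, 43.1 and 64.6 FPKM (4.08). In these 3 genes number 2 was high in control and higher again with IL-4 in both titled genotypes. Mx2, a paralog of Mx1, was lower in level, at 0.302 to 1.07 FPKM in number 1 and 6.95 to 11.1 FPKM in number 2 (2.57). Isg20, an exonuclease, was at 2.14, 1.67, 4.31 and 1.26 FPKM against 25.7, 11.7, 24.9 and 14.0 FPKM (2.59), with the lower values of number 2 in its IL-4 libraries. The 2 most abundant of the 48 genes in number 2 were membrane proteins that act on virus entry and release. Ifitm3 was at 627, 221, 563 and 273 FPKM against 1361, 803, 1246 and 944 FPKM (1.48), and Bst2, which is tetherin, at 260, 212, 213 and 217 FPKM against 704, 455, 763 and 482 FPKM (1.38). The kinase Eif2ak2, which stops translation on double-stranded RNA, the RNA-editing enzyme Adar and Samd9l differed less, by 1.41, 0.99 and 0.98, and none overlapped between numbers.

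Among the transcription factors, Irf7 was at 46.2, 38.6, 36.1 and 27.7 FPKM in number 1 and at 203, 141, 239 and 184 FPKM in number 2 (2.33 ± 0.16, SE; adjusted p = 0.000332). Stat2 differed by 2.08. Irf9 differed by only 0.36 (adjusted p = 0.021), at 18.5, 15.4, 15.9 and 14.0 FPKM against 22.5, 17.8, 23.7 and 19.2 FPKM, so its ranges overlapped. The call for Irf9 was lost when any of 5 libraries was left out. All 6 cytosolic sensors were called higher. Zbp1, a sensor of Z-form nucleic acids, was at 12.95, 18.6, 16.6 and 18.0 FPKM against 146, 95.0, 162 and 122 FPKM (2.90), and the RNA sensors Ddx58, Ifih1 and Dhx58 differed by 2.04, 1.60 and 1.96. Ifi203 and Ifi204, neighbouring genes of one family, differed by 1.44 and 1.58, and reads may have been split between them.

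Of the 6 interferon-inducible GTPase genes 5 were called higher, led by Igtp (2.26) and Ifi47 (2.17), with Irgm1, Gbp2 and Gbp3, which act on vacuoles that hold pathogens, at 1.88, 1.48 and 1.18. Gvin1, the giant GTPase of this class, went against the rest, at 0.292, 2.80, 1.52 and 1.97 FPKM in number 1 and 0.679, 2.66, 0.802 and 1.37 FPKM in number 2 (−0.12 ± 0.16, SE; adjusted p = 0.573). Gvin1 occupies 2 rows of the tables that were summed, and its copies are near-identical. Parp9, Parp14 and Dtx3l, which act together in ADP-ribosylation and ubiquitination, were all called higher, with Parp14 at 1.71 and Dtx3l at 1.09. The secreted galectin ligand Lgals3bp was at 373, 333, 345 and 290 FPKM against 419, 348, 363 and 337 FPKM, and its difference of 0.13 ± 0.08 (SE) did not pass the test (adjusted p = 0.234; with median-of-ratios scaling it did). Cxcl10, a chemokine for activated T cells, was at 1.80, 4.50, 18.6 and 0.851 FPKM against 19.7, 42.5, 25.5 and 41.0 FPKM (2.70 ± 0.57, SE; adjusted p = 0.0141). Its Ern1f/fLyz2-Cre control library numbered 1 stood close to the lowest value of number 2, and the call was lost without either Ern1f/f control library. Of the last 6 genes, all called higher, Ifi44 was at 1.31 to 2.48 FPKM in number 1 and 25.5 to 28.9 FPKM in number 2 (3.28). Rtp4, Xaf1, Ifi35, Epsti1 and Tor3a differed by 1.52, 1.12, 1.01, 0.88 and 0.77, and the call for Epsti1 was lost without either Ern1f/fLyz2-Cre IL-4 library.

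**Figure D2:**
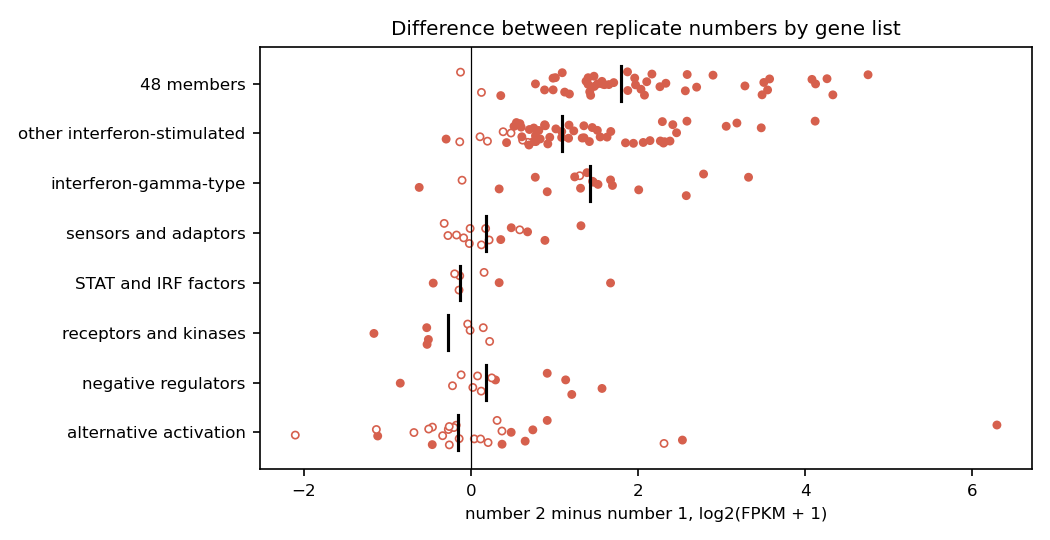
Difference between replicate numbers, number 2 minus number 1, on the log2(FPKM + 1) scale for each tested gene of 8 lists, with filled points for adjusted p under 0.05 and a bar at the median. The 48 genes and the other interferon-stimulated genes lie mostly right of 0 (medians 1.79 and 1.09), and the receptor and kinase genes have a median of −0.27.

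The ligands themselves were near the floor. Of 19 interferon genes in the tables, 14 were listed at 0 in every library and none passed the filter. Ifnb1, interferon beta, was listed at 0 in all 4 libraries numbered 1 and at 0.345, 0.722, 0.200 and 0.716 FPKM in number 2, where the authors' deposited intervals ran from 0.0842 to 0.606, 0.321 to 1.12, 0 to 0.431 and 0.303 to 1.13. Both IL-4 libraries of number 2 had a higher Ifnb1 estimate than both control libraries, and the intervals overlap. Ifna4 was listed at 0 in number 1 and at 0.0642, 0.145, 0 and 0.0780 FPKM in number 2. No fold is given against a group at 0, and reads behind these estimates are few.

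Receptor and kinase genes held no call for a higher level in the main fit. Of 8 tested, 0 were called higher in number 2 and 4 lower, against 1104 and 2553 of all 10934 tested genes. Ifnar1 was at 25.8, 22.1, 25.1 and 19.8 FPKM in number 1 and at 15.0, 16.7, 13.8 and 17.7 FPKM in number 2 (fell by 0.53 on the log2 scale, adjusted p = 0.021), and Ifnar2 fell by 0.51. Ifngr1, a chain of the interferon gamma receptor, fell by 1.16, and Il10rb, a chain of the receptors for IL-10 and interferon lambda, by 0.52 (its call was lost with median-of-ratios scaling, adjusted p = 0.054). The values for Jak1, Jak2, Tyk2 and Ifngr2 did not pass the test (−0.01, 0.15, 0.23 and −0.04). Tyk2 was called higher by limma with median-of-ratios scaling (0.34, adjusted p = 0.018) and with upper-quartile scaling (0.28, adjusted p = 0.028).

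Among the IRF genes outside the 48, Irf1 was called higher (0.34) and Irf5 lower (−0.45, with an adjusted p of 0.083 under median-of-ratios scaling). Of 15 sensors and adaptors 5 were called higher, with the DNA receptor Tlr9 (1.32), the kinase Ikbke (0.89) and the RNA receptor Tlr3 (0.68) in front. Of 12 negative regulators of the pathway or its triggers, Socs3 (1.57), Samhd1 (1.21), Trex1 (1.14), Socs1 (0.92) and Ptpn6 (0.30) were called higher and Rnaseh2c (−0.84) lower. A wider list of 58 other interferon-stimulated genes held 50 called higher and 1 lower (Shisa5, −0.29, with an adjusted p of 0.107 under median-of-ratios scaling), with a median of 1.09. Ccl12, a monocyte chemokine, led it at 0.297, 0.938, 1.45 and 2.49 FPKM against 21.3, 44.1, 36.4 and 51.5 FPKM (4.12). Of 18 tested genes typical of interferon gamma, which share many targets with type I interferon, 15 were called higher. For each of these lists, the counts over all 10934 tested genes were 1104 higher (10.1%) and 2553 lower.

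**Figure D3:**
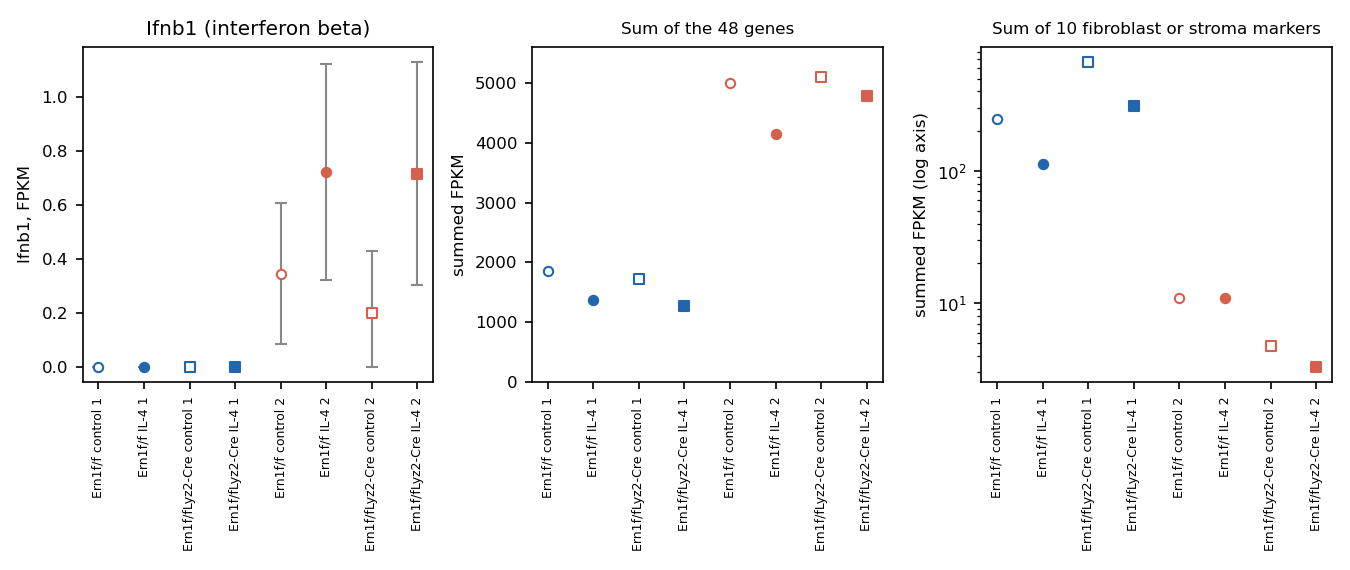
FPKM of Ifnb1 with the authors' intervals (left), summed FPKM of the 48 genes (middle) and summed FPKM of 10 fibroblast or stroma markers (right, log axis) in each library, with symbols as in the plot of all genes. The 4 libraries numbered 1 are at 0 for Ifnb1, at 1276 to 1857 for the 48 genes and at 113 to 665 for the markers; the 4 numbered 2 are at 0.200 to 0.722, 4151 to 5102 and 3.31 to 10.9.

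Another cell type's markers moved with the replicate number. Summed over 10 fibroblast or stroma genes, the level was 245, 113, 665 and 312 FPKM in number 1 and 10.9, 10.9, 4.79 and 3.31 FPKM in number 2. Of these genes, 8 of the 8 that were tested were called lower in number 2, as were 2553 of all 10934 tested genes. Collagen Col1a1, a defining marker, was at 31.1 to 203 FPKM in number 1 and at 0.444 to 2.60 FPKM in number 2. The part of these cells in the difference of the 48 genes was not tested. Plasmacytoid dendritic cells are strong producers of interferon. Their list of 7 markers summed to 10.02 to 15.4 FPKM in number 1 and 9.48 to 11.1 FPKM in number 2, of which the transcription factor Tcf4, not specific to them, made up 8.46 to 13.1 FPKM. The defining marker Siglech was at 0 in number 1 and at most 0.0275 FPKM in number 2. Spib was at 0 to 0.0258 FPKM in number 1 and at 0.295 to 0.543 FPKM in number 2, without overlap, and was too low to be tested, while Ly6d was called lower in number 2 (−0.96). Their part in the difference of the 48 genes was not tested. No T or NK cell or conventional dendritic cell marker reached 1 FPKM. Of 2 tested neutrophil markers, 2 were called higher in number 2 (S100a9, 1.54, and S100a8, 0.53). Of 3 tested B cell markers, 1 was called higher (Cd79b, 2.36) and 1 lower (Ebf1, −0.91). Among 5 tested Ly6C monocyte markers, 2 were called higher (Chi3l3, 6.30, and Plac8, 1.46) and 0 lower. Of all tested genes, 10.1% were called higher. What these lists contribute to the difference of the 48 genes was not tested. In bulk samples, fewer cells of a type and less RNA per cell cannot be told apart.

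IL-4 was read next within each replicate number, where the 2 titled genotypes serve as the pairs, in a limma fit with number, IL-4, their interaction and genotype as terms. The IL-4 treatment itself was visible in both numbers: of 28 tested genes of alternative activation 26 were called higher in number 1 and 27 in number 2, among them Mrc1, the mannose receptor (2.07 in both), and Arg1, arginase (5.94 and 5.71). The size of the response differed between the numbers for 6 of the 28, which were called in the interaction test, 1 higher and 5 lower in number 2, with a median of −0.72 over the list. The chitinase-like Chi3l3 was already at 999 and 1088 FPKM in the controls numbered 2, against 0.844 and 0.407 FPKM in those numbered 1, and differed most (−6.09). Of the 48 interferon-stimulated genes 15 were called in at least 1 number, 33 in neither, and 1, Ifitm3, in both. These counts were not made over all tested genes, so they do not set the 48 apart. Shares of all tested genes are given below for each number.

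In the libraries numbered 1, 8 of the 48 genes were called lower with IL-4, where 11.4% of all tested genes were, and 1 higher, where 7.69% were. Ifit3 fell in both pairs, from 13.5 to 4.18 FPKM and from 11.0 to 2.44 FPKM (−1.65 ± 0.21 on the log2 scale, SE; adjusted p = 0.00283), and Ifitm3 from 627 to 221 FPKM and from 563 to 273 FPKM (−1.27 ± 0.15, SE; adjusted p = 0.00174). These 2 genes were called whichever of the 8 libraries was left out. Ifit1 fell by 1.16 (adjusted p = 0.00836), from 5.72 to 3.06 FPKM and from 7.43 to 1.82 FPKM. Ifit2 (−0.91), Oas2 (−0.73), Ifi44 (−0.46), Oasl2 (−0.42) and Igtp (−0.39) were also called lower. In the same order, these 5 calls were kept in 1, 2, 1, 4 and 0 of the 8 fits that left out a library. Tor3a, an ATPase of the endoplasmic reticulum, went up from 36.6 to 62.4 FPKM and from 35.6 to 56.6 FPKM (0.70 ± 0.11, SE; adjusted p = 0.00513). In all, 30 of the 48 were lower with IL-4 in both pairs, as were 42.0% of all tested genes, and the median of the 48 was −0.22 against −0.04 for all tested genes. In the same pairs the fibroblast or stroma sum went from 245 to 113 FPKM and from 665 to 312 FPKM with IL-4, and its part in these values was not tested.

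The pairs of number 1 differed from each other. Isg15 went from 20.1 to 22.8 FPKM in Ern1f/f and from 33.0 to 14.0 FPKM in Ern1f/fLyz2-Cre, and Cxcl10 from 1.80 to 4.50 and from 18.6 to 0.851 FPKM. The Ern1f/fLyz2-Cre control library numbered 1 had the highest value of number 1 for Isg15, Cxcl10, Ifit1, Ifit2, Rsad2, Cmpk2, Mx1 and Isg20. Without it, 4 of the 48 genes were called in number 1 in place of 9. The count was 5 without the Ern1f/fLyz2-Cre IL-4 library numbered 1, 5 without the Ern1f/f control library numbered 2 and 5 without the Ern1f/fLyz2-Cre control library numbered 2.

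**Figure D4:**
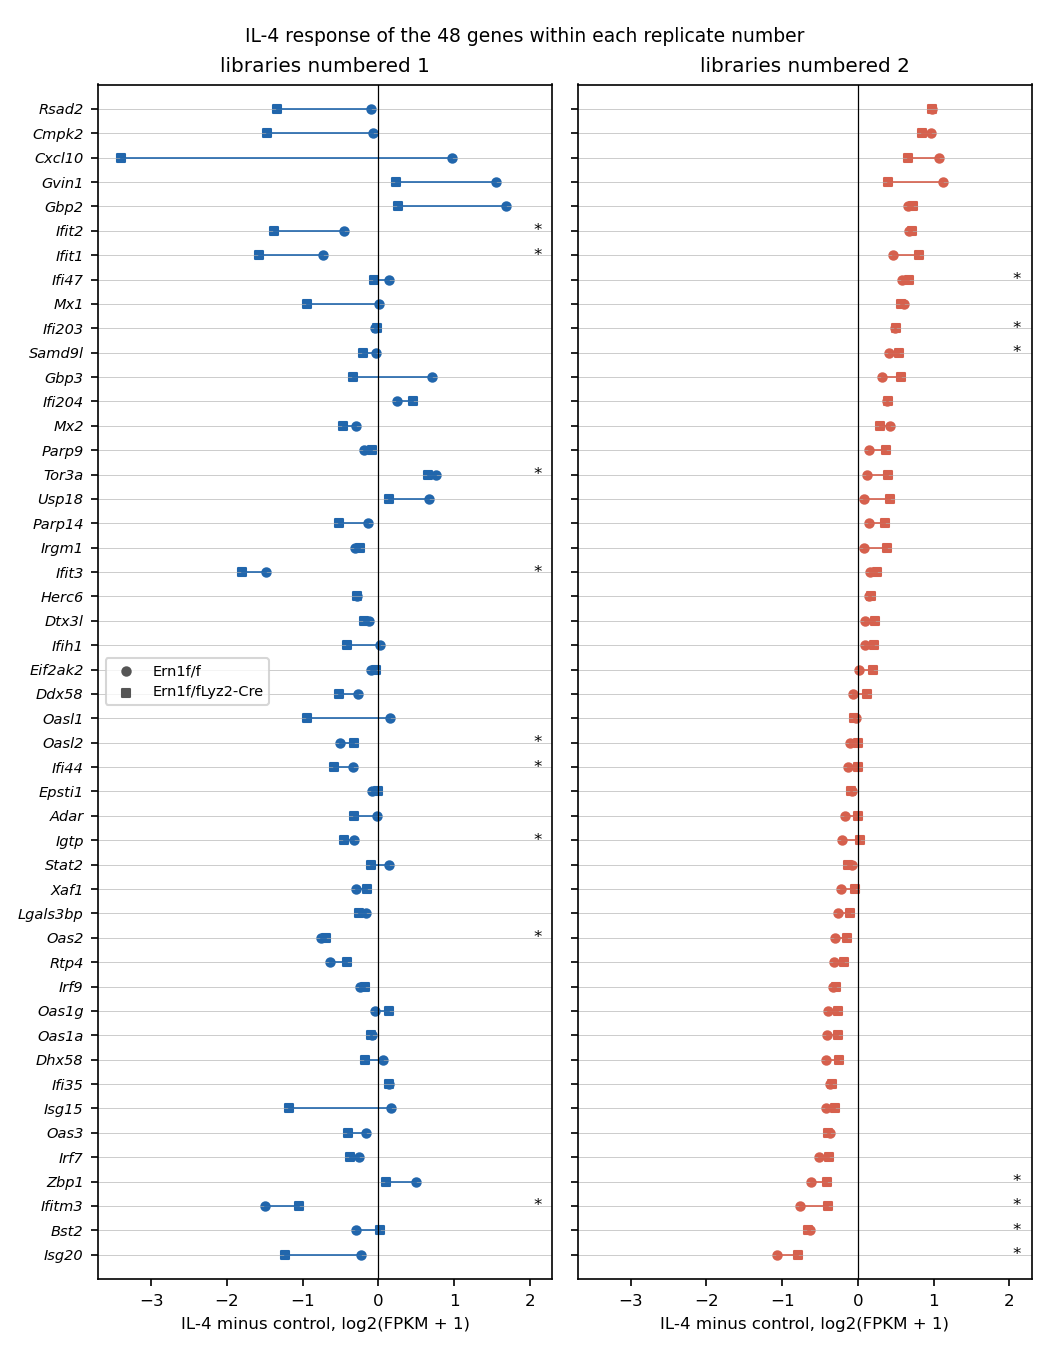
IL-4 minus control on the log2(FPKM + 1) scale for each of the 48 genes in the libraries numbered 1 (left) and 2 (right), with circles for Ern1f/f, squares for Ern1f/fLyz2-Cre, a line joining the 2 pairs and an asterisk for adjusted p under 0.05. The genes are ordered by the response in number 2, from Rsad2 (0.98) at the top to Isg20 (−0.93) at the bottom, and the pairs of number 1 lie farther apart for Cxcl10, Cmpk2, Rsad2 and Isg15.

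In the libraries numbered 2, where these genes were high, IL-4 gave calls in both directions, at shares near those of all tested genes. Called lower were 4 of the 48 genes, against 5.88% of all tested genes, and called higher 3, against 5.08%. Isg20 fell from 25.7 to 11.7 FPKM in Ern1f/f and from 24.9 to 14.0 FPKM in Ern1f/fLyz2-Cre (−0.93 ± 0.21, SE; adjusted p = 0.0363), beside −0.73 in number 1, which did not pass the test (adjusted p = 0.0535). Bst2 fell from 704 to 455 FPKM and from 763 to 482 FPKM (−0.65 ± 0.13, SE; adjusted p = 0.0203). Ifitm3 (−0.58) and Zbp1 (−0.51) were the other called falls. Zbp1 went from 146 to 95.0 FPKM and from 162 to 122 FPKM, while in number 1 it went from 12.95 to 18.6 FPKM and from 16.6 to 18.0 FPKM, which did not pass the test. Ifi47, a GTPase of the immunity-related family, rose from 36.9 to 55.6 FPKM and from 44.8 to 72.5 FPKM (0.63 ± 0.11, SE; adjusted p = 0.0149). Ifi203 (0.50) and Samd9l, an antiviral translation inhibitor (0.48), rose with it. None of these 7 calls, each with an adjusted p between 0.0122 and 0.0484, was kept when any 1 of the 4 libraries numbered 2 was left out, which left 0 of the 48 called; without either IL-4 library numbered 1 the count was 11 or 12.

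By direction alone, 24 of the 48 were higher with IL-4 in both pairs of number 2, against 32.1% of all tested genes, and 21 were lower in both, against 37.8%. Rsad2 went from 65.3 to 129 FPKM and from 78.8 to 157 FPKM (0.98 ± 0.28, SE; adjusted p = 0.0736) and Cmpk2 from 38.7 to 76.5 FPKM and from 50.1 to 91.0 FPKM (0.91 ± 0.29, SE; adjusted p = 0.101). Neither passed the test, although the 2 titled genotypes gave log2 values of 0.98 and 0.98 for Rsad2 and 0.96 and 0.85 for Cmpk2. The fit shares 1 estimate of the spread between both numbers, and for these genes the pairs of number 1 lie far apart (−0.10 and −1.34 for Rsad2).

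Responses were also read by size, as the same sign in both titled genotypes of 1 number. At a size of at least 1 on the log2 scale none of the 48 met this in number 2, where 1.1% of all tested genes did so upward and 0.613% downward, while Ifit3 and Ifitm3 did downward in number 1 (1.72% of all tested genes). At a size of at least 0.5, 7 genes met it upward in number 2 (Ifit2, Mx1, Rsad2, Cmpk2, Ifi47, Gbp2 and Cxcl10), against 3.78% of all tested genes, and 2 downward (Isg20 and Bst2), against 3.81%. Of the 7, Ifi47 alone was called higher in number 2, and the rises of the others did not pass the test. Isg20 and Bst2 were both called. In number 1 the size of 0.5 was met downward by Ifit1, Ifit3, Oas2 and Ifitm3, against 7.59% of all tested genes, and upward by Tor3a, against 4.44%. So 0 of the 48 met it in the same direction in both numbers, a count not made over all tested genes. Of the 7 upward genes of number 2, Ifit2 was called lower in number 1 (−0.91), and Rsad2 (−0.72), Cmpk2 (−0.77), Mx1 (−0.47) and Cxcl10 (−1.22) had negative values there that did not pass the test. By the test, Ifitm3 was the 1 gene called in the same direction in both numbers (−1.27 and −0.58). Its call was kept in 8 of 8 fits that left out a library in number 1, but in 1 of 8 in number 2. There its pairs were −0.76 and −0.40, so it missed the size of 0.5 in 1 pair. Rsad2 at 0.98 in both pairs lay just under the size of 1, and Isg20, at −1.07 and −0.79, passed it in 1 pair. Just under 0.5 in 1 pair were Ifit1 (0.47 and 0.80), Ifi203 (0.49 and 0.50) and Samd9l (0.41 and 0.54).

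The response itself differed between the numbers for 1 of the 48 genes by the interaction test, where 0.787% of all tested genes were called. Ifit1 went down with IL-4 in both pairs of number 1 and up in both of number 2, from 71.9 to 99.6 FPKM and from 67.5 to 119 FPKM, a difference between responses of 1.79 ± 0.28 on the log2 scale (SE; adjusted p = 0.0449). The call was kept in 2 of the 8 fits that left out a library and in 4 of 9 other settings. Its relatives had values near it, with 1.85 for Ifit3 (adjusted p = 0.0523) and 1.60 for Ifit2 (adjusted p = 0.0865), as did Rsad2 (1.70, adjusted p = 0.117) and Cmpk2 (1.67, adjusted p = 0.123). Zbp1 had the opposite sign, −0.81 (adjusted p = 0.088). In all, 14 of the 48 were lower in both pairs of number 1 and higher in both of number 2, against 7.23% of all tested genes. The reverse held for 2 (Zbp1 and Ifi35), against 5.83%. Other genes kept their direction: 13 of the 48 were lower with IL-4 in all 4 pairs, against 23.5% of all tested genes. Another 5 (Usp18, Ifi204, Gbp2, Gvin1 and Tor3a) were higher in all 4, against 17.0%. Among the pathway genes outside the 48, 2 were also called: Tlr7, an RNA receptor (1.05), and Socs1, an inhibitor of JAK kinases that IL-4 raised less in number 2 (−1.35).

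With replicate number left out of the fit, so that it enters the spread, the titled groups were compared over both numbers. In Ern1f/f, 0 of the 48 genes were called for IL-4 and 0.0% of all tested genes, and in Ern1f/fLyz2-Cre 0 of the 48 and 0.0549%, by limma with Benjamini-Hochberg adjustment. At an unadjusted p under 0.05, 673 and 933 of all tested genes passed, and of the 48 1 (Gvin1) and 0. Gvin1 went from 0.292 to 2.80 FPKM and from 0.679 to 2.66 FPKM in Ern1f/f (1.34 ± 0.24, SE; adjusted p = 0.233). With the replicate number as a block, limma called Gvin1 (adjusted p = 0.0376). Standard errors in these fits ran from 0.139 for Lgals3bp to 2.80 for Ifit3 (−0.66 ± 2.80 for IL-4 in Ern1f/f), and for the 45 genes without overlap the 2 libraries of a group lay on either side of the gap between numbers.

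The titled genotypes, averaged over treatments, differed by −0.40 to 0.46 on the log2 scale across the 48 genes, and 0 were called, as were 0.0% of all tested genes (52 at an unadjusted p under 0.05, none of them among the 48). With the replicate number as a block, 0 were called again, and 223 of all tested genes and 3 of the 48 (Ifi203, Oasl1 and Oasl2) had an unadjusted p under 0.05. Ifi203 and Igtp were higher in Ern1f/fLyz2-Cre in all 4 matched pairs, as were 6.55% of all tested genes, and Oasl2 and Lgals3bp lower, as were 4.49%. Ifi203 differed by 0.31, 0.32, 0.34 and 0.33 in the controls numbered 1 and 2 and the IL-4 libraries numbered 1 and 2, and Oasl2 by −0.50, −0.43, −0.32 and −0.33 (with the block −0.40 ± 0.10, SE; limma adjusted p = 0.9998). The genotype by IL-4 interaction also gave 0 calls among the 48 and 0.0% among all tested genes (19 at an unadjusted p under 0.05, of which Gvin1 was 1 of the 48). By pair, the median of Ern1f/fLyz2-Cre minus Ern1f/f over the 48 genes was −0.03 in the controls numbered 1 and 0.12 in the controls numbered 2. With IL-4 it was −0.26 in number 1, where 41 of the 48 (85.4%) were lower, against 55.6% of all tested genes, and 0.24 in number 2, where 43 (89.6%) were higher, against 67.1%. Each of these is 1 library against 1, with no replicate check, and the sign turned between the numbers.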

How the data were processed

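Total RNA of bone marrow-derived macrophages was sequenced in 8 libraries, and the authors deposited 1 table per library with gene-level FPKM, a lower and an upper confidence bound in FPKM, and a flag for the quality of the estimate. The tools TopHat 1.4.1 and Cufflinks 1.3.0 and the build mm10 are named per the submitters' processing notes; the source of the gene models and any use of strand are not given in the sources used here. Counts and library depth were not used here, so precision is taken from the authors' intervals: their median half-width over the listed genes with 1 row was 5.95% to 6.46% of the level in libraries numbered 1 and 3.12% to 3.64% in those numbered 2. FPKM is a share of the library, so a rise of abundant genes lowers others.

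Each table has 23838 rows and 23354 symbols. Rows that share a symbol were summed, and the 10934 genes that reached 1 FPKM in 2 or more libraries were tested on log2(FPKM + 1) by limma (version 3.58.1, under R 4.3.3, with a mean-variance trend in its eBayes step and Benjamini-Hochberg adjustment over all tested genes, called at 0.05). The difference between numbers was fitted with the 4 groups, IL-4 within numbers with number, IL-4, interaction and genotype, and the titled groups with no replicate term. The scripts were tested on simulated data. Libraries were grouped by title. All 48 genes are given in the plots. The text names, per comparison, called genes up to the 12 with the largest differences and further genes of each role with their values, and of pathway lists up to 4 genes with the smallest p; other pathway genes named were chosen after their values were seen. The genes, lists and tests were chosen with earlier results of these data known. Alternatives were another pseudocount, filter, scaling, variance model, row choice or covariate set and leaving out each library. Figures were drawn with matplotlib 3.10.9. The result of 1 pathway gene is not reported here.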

Additional observations from a re-analysis of the deposited data

Results flagged for a closer look

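The IL-4 response of Ifit1 differed between the replicate numbers by a test of the difference itself (1.79 ± 0.28 on the log2(FPKM + 1) scale, SE; limma with Benjamini-Hochberg adjustment over all tested genes, adjusted p = 0.0449). Ifit1 was lower with IL-4 in both pairs numbered 1 (−0.73 and −1.58) and higher in both pairs numbered 2 (0.47 and 0.80). The call was kept in 2 of 8 fits that left out a library. With 2 libraries per group, no group was large enough for a check of single outlying libraries.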

How the results depend on the processing

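Direction was followed for the called genes of the 48, up to 12 per comparison, and none of these reversed under any alternative. Other named genes were not followed in this way. Outside the 48, uncalled differences between numbers changed sign with median-of-ratios scaling for Jak1 (−0.01 to 0.11) and Ifngr2 (−0.04 to 0.08). Of the differences between numbers, 1 of 108 values of the 12 named genes lost its call under another setting and 2 of 96 when a library was left out; for IL-4 in number 1 these were 13 of 81 and 34 of 72 (9 genes), and in number 2 11 of 63 and 35 of 56 (7 genes). Leaving out 1 library gave 2344 to 2612 genes and 44 to 46 of the 48 called between numbers, 659 to 1963 and 4 to 12 for IL-4 in number 1, 222 to 1155 and 0 to 12 in number 2, and 7 to 68 and 0 to 5 for the difference between these responses. In the fits of titled groups it gave 0 to 1 genes for IL-4 in either genotype. With no filter on low values, 1342 genes and 4 of the 48 were called for IL-4 in number 1, 531 and 1 in number 2, and 8 and 0 for the difference of responses. With a pseudocount of 5, 5 of the 48 were called in number 1; with one of 0.1, 38 genes and 0 of the 48 were called for the difference of responses and 0 genes for IL-4 in Ern1f/fLyz2-Cre. That difference also gave 0 of the 48 with median-of-ratios scaling, upper-quartile scaling or no trend, and 2 with a filter of 5 FPKM or without a genotype term. For IL-4 in Ern1f/f, 12 genes were called with median-of-ratios and 11 with upper-quartile scaling. In Ern1f/fLyz2-Cre, where the main count was 6, it was 26 and 13, 22 with the filter of 5 FPKM, and 0 with no filter or no trend. The cause of these changes was not tested. With a size of 0.5 in place of 1 on the log2 scale, 5 of the 48 reached it in both pairs of number 1 in place of 2, and 9 in both pairs of number 2 in place of 0. With the replicate block, 232 genes were called for IL-4 in Ern1f/f and 363 in Ern1f/fLyz2-Cre, and 1 of the 48 in the former; it changed no other call among the 48. Same-numbered libraries deviated together in all 6 pairs of groups (r = 0.688 to 0.827 across genes), a hint from the data with 2 numbers only, since the labels do not say what a number stands for.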
